A study of Mus musculus with 26 samples.

Results

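Cyp2b10 and Cyp4a12a are cytochrome P450 genes that were followed here across 5 exocrine glands of the mouse head and both sexes. They were chosen by name with earlier results of these arrays known. Cyp2b10 was selected on its male-to-female difference in the submandibular gland, and Cyp4a12a on that in the lacrimal gland. Those differences are therefore described without a test, and only the other glands are tested. Each gene had 1 probe, so 2 of the 8841 genes with a symbol on the array are described. The Cyp2b10 probe carries the accession NM_009999 (Entrez gene 13088) and the Cyp4a12a probe carries X71479 (Entrez gene 277753). RefSeq lists Cyp4a12 as an old name of both Cyp4a12a and Cyp4a12b, so these near-identical copies cannot be told apart by the symbol of the probe.

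Each of the 26 arrays measured RNA of the submandibular, sublingual, parotid, lacrimal or meibomian gland of male or female BALB/c mice. An array held the pooled glands of 5 animals. Each sex had 2 separate pools of the sublingual and of the parotid gland and 3 of each other gland. All mice belonged to this 1 strain, no label names a treatment, and their age is not given in the sources used here. No group was given or deprived of androgen, so these values bear on sex and not on androgen action. Levels below are the scaled intensities that were deposited, in pools A, B and C, and a group's level is their geometric mean. Differences are log2 values, male minus female, with the standard error of a limma model over all 26 arrays. Adjusted p-values run over all probes kept, and the number of arrays limits the precision.

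Cytochrome P450s are haem enzymes of the endoplasmic reticulum that oxidise steroids, fatty acids and foreign compounds with electrons from a reductase. Cyp2b10 is best known in liver, where phenobarbital and related compounds induce it through CAR, the constitutive androstane receptor. Cyp4a12a encodes an omega-hydroxylase of fatty acids, including arachidonic acid, and is known in mouse kidney as an androgen-induced, male-predominant gene. Saliva comes from the submandibular, sublingual and parotid glands, the watery part of tears from the lacrimal gland, and their lipid from the meibomian gland.

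Cyp2b10 lies on chromosome 7 among its closest relatives. The 250 bases before its start in the RefSeq table (GRCm38.p6, chr7:25897408-25897657, plus strand) are shown beside those of Cyp2b13 (chr7:26061245-26061494, plus strand) and Cyp2b19 (chr7:26756892-26757141, plus strand). They are shown because the probes of these neighbours carried no call between the sexes where Cyp2b10 differed. Capitals mark AGAACA, a core element read by the androgen and glucocorticoid receptors, AGGTCA, the core element of many nuclear receptors, and CATAAA, a variant of the TATA box.
Cyp2b10: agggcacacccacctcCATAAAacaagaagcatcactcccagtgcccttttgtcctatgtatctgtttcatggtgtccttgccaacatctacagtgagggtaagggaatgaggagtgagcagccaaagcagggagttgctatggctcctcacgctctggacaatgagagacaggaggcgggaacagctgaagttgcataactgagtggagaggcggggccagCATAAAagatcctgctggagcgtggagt
Cyp2b13: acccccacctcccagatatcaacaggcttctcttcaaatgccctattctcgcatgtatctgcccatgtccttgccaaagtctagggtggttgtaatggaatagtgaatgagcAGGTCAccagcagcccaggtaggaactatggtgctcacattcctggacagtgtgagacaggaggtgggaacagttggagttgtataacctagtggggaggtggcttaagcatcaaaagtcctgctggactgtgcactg
Cyp2b19: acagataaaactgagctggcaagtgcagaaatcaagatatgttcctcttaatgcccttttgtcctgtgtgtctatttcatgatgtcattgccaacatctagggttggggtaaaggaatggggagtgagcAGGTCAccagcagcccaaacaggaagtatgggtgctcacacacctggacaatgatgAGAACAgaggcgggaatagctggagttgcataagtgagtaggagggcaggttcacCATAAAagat
In the Cyp2b10 window CATAAA stood at -234 and -28 from the start, and AGAACA was found on neither strand, as were neither AGGTCA nor TATAAA. Cyp2b13 held AGGTCA at -138, as did Cyp2b9, whose window (chr7:26173159-26173408, plus strand) was identical to that of Cyp2b13 at 99.2% of its bases. Cyp2b19 held AGAACA at -65, AGGTCA at -121 and CATAAA at -10. With gaps counted, the Cyp2b10 window matched those of Cyp2b13 and Cyp2b9 at 71.0% of alignment columns and that of Cyp2b19 at 67.6%. With gaps left out, 186 of 238 aligned bases matched for Cyp2b13 and for Cyp2b9, and 186 of 225 for Cyp2b19. Which window was closer thus depends on how gaps are counted. Of 32817 mouse promoter windows cut the same way, 16.1% held AGAACA, 14.0% AGGTCA, 12.4% TATAAA and 10.8% CATAAA on either strand. CATAAA was added to the search after the sequences had been seen. Cyp4a12a is not among the promoters shown.

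Male submandibular glands held Cyp2b10 at a level that no female pool of that gland approached. In scaled intensity the female submandibular pools A, B and C read 0.210, 0.162 and 0.258, and the male pools read 6.33, 4.84 and 5.92. All 3 female pools lay below the 30th percentile of their arrays, so the fold can only be given as a bound. The male level of 5.66 was at least 16.8-fold above that limit of the female arrays (n = 3 pools per sex). The measured log2 difference, 4.78 ± 0.40, rests on female values under that percentile. In these bulk pools, fewer cells of a type and less RNA per cell cannot be told apart. In this gland 2.61% of the 8191 probes passed an adjusted p of 0.05, 214 in all (597 with the pool letter as a block) and 159 of them higher in males, and nothing is read from that share for Cyp2b10, which was selected on this comparison.

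Of the 4 glands tested, the lacrimal gland gave the 1 call for Cyp2b10, higher in males, and it was above the 30th percentile in every pool of both sexes. Female lacrimal pools A, B and C read 8.07, 4.85 and 4.99, and male pools read 32.9, 8.89 and 24.3. Every male pool lay above every female pool, although male pool B came within 1.83-fold of its female counterpart while pools A and C were 4.08-fold and 4.87-fold higher. The geometric means were 19.2 in males and 5.80 in females, a 3.32-fold difference (1.73 ± 0.40, adjusted p = 0.0111, 95% interval 1.85-fold to 5.93-fold, n = 3 pools per sex). Background was 5.43% of 8191 probes called in this gland, with 238 higher and 207 lower in males (445 in all, or 1108 with the pool letter as a block). The call was lost without female pool B (1.60, adjusted p = 0.0539), without male pool A (1.34, adjusted p = 0.066) and when the lacrimal arrays were fitted on their own (1.73 ± 0.52, adjusted p = 0.291). The standard error and interval of the main fit share the spread of a probe over all groups. Over all alternatives its adjusted p ran from 0.000318 to 0.291.

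In the sublingual gland the male pools of Cyp2b10 were higher, but the difference was not called. Female pools A and B read 0.305 and 0.413, with pool A below the 30th percentile of its array, and male pools read 1.72 and 0.580. Both male pools exceeded both female pools, by 5.63-fold in pair A and 1.41-fold in pair B. The difference was 1.49 ± 0.49 (adjusted p = 0.752, 95% interval 1.38-fold to 5.74-fold, n = 2 pools per sex), against 0.208% of 8191 probes called in this gland. The interval, unlike the adjusted p, takes no account of the number of probes tested.

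Parotid and meibomian levels of Cyp2b10 differed little between the sexes. Parotid pools A and B read 1.23 and 0.969 in females and 1.46 and 1.13 in males (0.24 ± 0.49, adjusted p = 1, 95% interval 0.578-fold to 2.41-fold, n = 2). Meibomian pools A, B and C read 1.26, 1.57 and 1.62 in females and 1.38, 1.93 and 1.79 in males (0.19 ± 0.40, adjusted p = 1, 95% interval 0.639-fold to 2.05-fold, n = 3). The groups overlapped in both glands. Within pairs the male pool was the higher one in every case, by 1.19-fold and 1.17-fold in the parotid and by 1.10-fold, 1.24-fold and 1.11-fold in the meibomian gland, and the fit with the pairs as a block did not call either gland (adjusted p = 0.998 and 1). Calls were rare here, at 0.0244% of 8190 probes in the parotid and 0.0366% of 8191 in the meibomian gland.

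**Figure D1:**
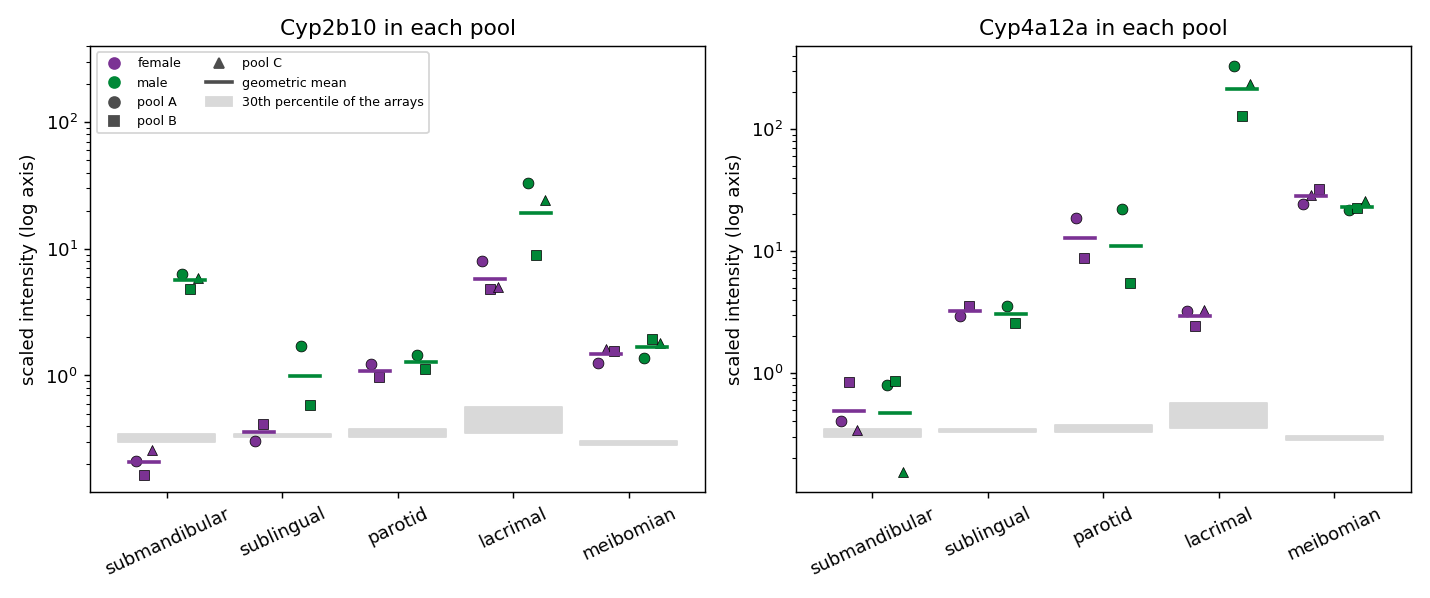
Scaled intensity (log axis) of Cyp2b10 and Cyp4a12a in every pool, by gland and sex; points are pools A, B and C, bars are geometric means, and grey bands span the 30th percentiles of the arrays of that gland. The male submandibular pools of Cyp2b10 (4.84 to 6.33) and the male lacrimal pools of Cyp4a12a (129 to 328) stand far above the female pools, and the female submandibular pools of Cyp2b10 lie below the band.

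Cyp4a12a showed its sex difference in the lacrimal gland. Female lacrimal pools A, B and C read 3.20, 2.45 and 3.30, and male pools read 328, 129 and 234. The lowest male pool was far above the highest female pool, and all 6 arrays read the gene above their 30th percentile, so both levels were measured. The level was 215 in males and 2.96 in females, 72.6-fold apart (6.18 ± 0.56, 95% interval 32.4-fold to 163-fold, n = 3 pools per sex). The ratios were 102, 52.5 and 71.0 in pairs A, B and C. Male pool B was the lowest male lacrimal pool for both genes, and female pool B the lowest female one.

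Outside the lacrimal gland no sex difference of Cyp4a12a was called. Meibomian pools A, B and C read 24.5, 32.5 and 28.8 in females and 21.6, 22.5 and 25.7 in males (-0.30 ± 0.56, adjusted p = 1, 95% interval 0.363-fold to 1.83-fold). Within meibomian pairs A, B and C the male pool was lower each time, at 0.880-fold, 0.690-fold and 0.890-fold of the female pool. On the meibomian arrays alone the standard error was 0.16. Neither that fit nor the fit with the pairs as a block called the difference. Parotid pools A and B read 18.8 and 8.83 in females and 22.0 and 5.43 in males (-0.24 ± 0.68, adjusted p = 1, 0.316-fold to 2.28-fold). Parotid pool A was above pool B in both sexes, so the pools of this gland differed more by letter than by sex.

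Sublingual pools A and B read 2.91 and 3.51 in females and 3.52 and 2.58 in males for Cyp4a12a (-0.08 ± 0.68, adjusted p = 1, 95% interval 0.351-fold to 2.54-fold). Submandibular pools A, B and C read 0.402, 0.838 and 0.343 in females and 0.790, 0.862 and 0.154 in males (-0.05 ± 0.56, adjusted p = 0.998, 0.432-fold to 2.17-fold), and male pool C lay below the 30th percentile of its array. The sexes overlapped in the sublingual, parotid, submandibular and meibomian glands.

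**Figure D2:**
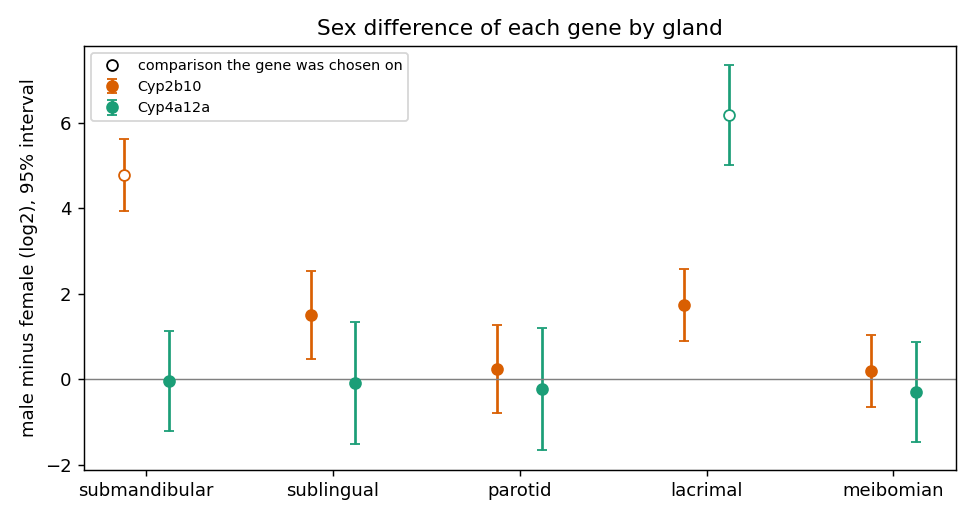
Male minus female difference (log2) of Cyp2b10 and Cyp4a12a in each gland, with 95% intervals from the limma model; open circles mark the comparison each gene was selected on. The intervals of Cyp4a12a span 0 in the submandibular, sublingual, parotid and meibomian glands, and those of Cyp2b10 lie above 0 in the submandibular, sublingual and lacrimal glands.

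Did the sex difference itself vary between the glands that played no part in the choice? For Cyp2b10 the differences in the sublingual, parotid, lacrimal and meibomian glands spanned 1.54 on the log2 scale, and the moderated F test did not call them unequal (adjusted p = 0.578, with 1.81% of 8190 probes called). The lacrimal difference is thus not shown to exceed that of the sublingual, parotid or meibomian gland. For Cyp4a12a the differences in the submandibular, sublingual, parotid and meibomian glands spanned 0.25 (adjusted p = 1, with 0.488% of 8190 probes called). That span rested on single pools: it was 1.20 without male parotid pool A, 1.07 without male parotid pool B and 1.06 without male submandibular pool C, none of them called.

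Between glands, Cyp2b10 was highest in the lacrimal gland of either sex. In females the order was lacrimal (5.80), meibomian (1.47), parotid (1.09), sublingual (0.355) and submandibular (0.206). No neighbours in that order overlapped, but the lowest meibomian pool (1.26) and the highest parotid pool (1.23) lay close together. In males the order was lacrimal (19.2), submandibular (5.66), meibomian (1.69), parotid (1.29) and sublingual (0.998), and the last 3 overlapped. Leaving out the submandibular gland, the group means spanned 4.03 on the log2 scale in females (adjusted p = 2.19e-06) and 4.27 in males (adjusted p = 9.14e-08). Most probes differed between these glands as well, 60% of 8190 in females and 61.9% in males. A call here is thus shared with most of the array and says little about Cyp2b10 itself.

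Cyp4a12a had another order, with the meibomian gland first in females. Female levels were 28.4 (meibomian), 12.9 (parotid), 3.19 (sublingual), 2.96 (lacrimal) and 0.487 (submandibular), and the sublingual and lacrimal pools overlapped. Male levels were 215 (lacrimal), 23.2 (meibomian), 10.9 (parotid), 3.02 (sublingual) and 0.472 (submandibular), and the meibomian and parotid pools overlapped. The male lacrimal gland was thus above the meibomian gland, whereas the female lacrimal gland was below it. Leaving out the lacrimal gland, the means spanned 5.87 in females (adjusted p = 1.88e-07) and 5.62 in males (adjusted p = 3.16e-07), where 49.8% and 53% of 8190 probes were called.

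The log2 levels of Cyp2b10 and Cyp4a12a correlated at r = 0.464 over the 26 arrays and 0.467 over the 10 group means, a description over points that share glands and pools. In the submandibular gland Cyp2b10 differed between the sexes by a measured 4.78 and Cyp4a12a by -0.05. The same differences in lacrimal glands were 1.73 and 6.18.

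How did the other Cyp2 and Cyp4 genes behave? Of 55 further family members listed, 26 were on the array and 17 were kept, 13 of the Cyp2 and 4 of the Cyp4 family. These lists are too short to be compared with the 5.43% of all probes called in lacrimal comparisons. There 1 of the 13 was higher in males and 1 of the 4 lower. The first was Cyp2c55, a P450 of the Cyp2c subfamily, at 2.62 in males against 0.836 in females (1.65 ± 0.32, adjusted p = 0.00291, 2 male and 3 female pools measured). The second was Cyp4f15, at 0.434 against 1.10 (-1.34 ± 0.32, adjusted p = 0.014). In the submandibular, sublingual, parotid and meibomian glands 0 of the 17 passed limma's adjusted p of 0.05. The median difference was -0.06 for the Cyp2 and -0.05 for the Cyp4 genes in the submandibular gland, where that of all probes was -0.09. The lacrimal medians were -0.25 and -0.35, against -0.03 for all probes.

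None of the Cyp2b neighbours was called in any gland by limma, where unadjusted p under 0.05 was met by 19 (meibomian) to 1205 (lacrimal) of all probes. Cyp2b13, a female-predominant gene of the mouse liver, read 5.47 to 22.6 in female and 5.31 to 15.2 in male submandibular pools (-0.32 ± 0.57, adjusted p = 0.975). Its lacrimal pools read 2.95 to 8.56 in females and 1.41 to 5.82 in males (-0.64 ± 0.57, adjusted p = 0.718). The male and female pools overlapped in both glands. Sublingual pools of Cyp2b13 did not overlap and ran opposite to Cyp2b10, at 4.82 to 7.33 in females and 1.07 to 3.03 in males (-1.72 ± 0.70, adjusted p = 1). Cyp2b19, known from keratinocytes, read 1.62 to 1.89 in female and 1.42 to 1.66 in male submandibular pools (-0.14 ± 0.25, adjusted p = 0.98). In lacrimal pools it read 2.21 to 3.66 in females and 1.80 to 1.94 in males (-0.52 ± 0.25, adjusted p = 0.358). Cyp2b9 had group levels from 0.105 to 0.779 and a measured submandibular difference of 1.27 ± 0.59 (adjusted p = 0.47). Its female submandibular pools read at most 0.251, below the 30th percentile of each of those arrays (0.322 to 0.346), so this difference rests on dim values. Of the Cyp4a relatives only Cyp4a14, a target of PPAR alpha, was on the array, and it was too dim to be kept, with levels from 0.0345 to 0.288. What each probe reads among near-identical P450 genes was not tested.

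**Figure D3:**
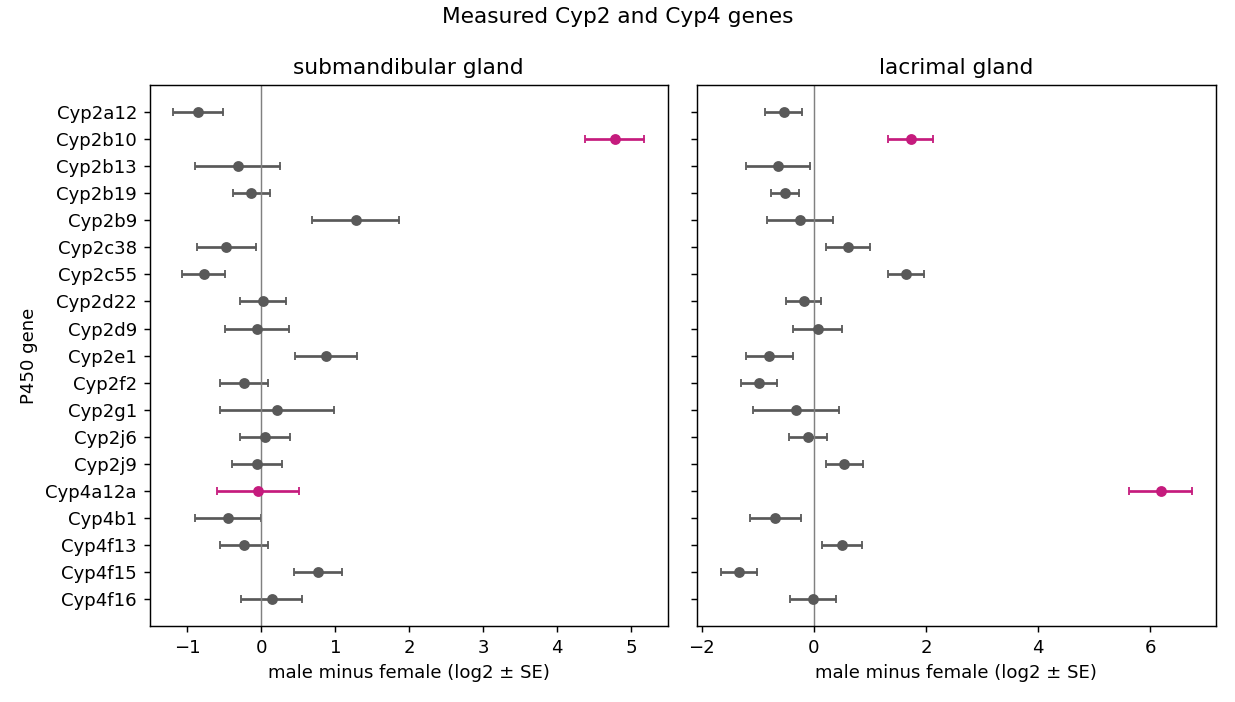
Male minus female difference (log2, ± SE) of every kept Cyp2 and Cyp4 gene in the submandibular and lacrimal glands, with Cyp2b10 and Cyp4a12a in magenta. Beside Cyp2b10 at a measured 4.78 the submandibular values of the other genes lie between -0.86 and 1.27, and beside Cyp4a12a at 6.18 the lacrimal values of the other genes lie between -1.34 and 1.73, the highest being Cyp2b10.

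Cyp2b10 is a target of CAR, which shares many targets with the pregnane receptor PXR. Of 17 kept genes for these receptors and targets, 1 was higher and 2 were lower in male submandibular glands, and 3 were higher and 2 lower in male lacrimal glands. Over all probes 2.61% and 5.43% were called in these glands (597 and 1108 probes with the pool letter as a block). In the submandibular gland the glutathione transferase Gsta2 rose at least 2.79-fold in males (3.02 ± 0.36, adjusted p = 2.58e-05), the transferase Gstt1 was lower (-1.70 ± 0.41, adjusted p = 0.0242), and so was Rxrg, a receptor that partners CAR (-0.95 ± 0.22, adjusted p = 0.0194). In the lacrimal gland Abcc2, an exporter of conjugated compounds, was at 3.25 in males against 0.208 in females (3.96 ± 0.60, adjusted p = 0.000151). That female level was below the 30th percentile of each female lacrimal array (0.366 to 0.512), so the size of the difference rests on dim values. The drug-metabolising P450 Cyp3a13 was at 6.72 against 0.843 (2.996 ± 0.37, adjusted p = 1.49e-05). The drug exporter Abcb1a went the other way, at 0.348 against 2.59 (-2.89 ± 0.60, adjusted p = 0.00432). Its male level was just below 0.351, the lowest 30th percentile of the male lacrimal arrays. Cyp2c55, given above, was the third that was higher, and Gstm1, named after its value was seen, was the other that was lower (-0.81 ± 0.24, adjusted p = 0.0481). The list's median was -0.09 in the submandibular and 0.03 in the lacrimal gland. Members moved both ways in both glands.

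PPAR alpha, a fatty acid receptor that drives other Cyp4a genes in liver, had 12 kept genes on its list. In male submandibular glands (2.61% of all probes called) 1 was lower, the pantetheinase Vnn1 (-1.14 ± 0.27, adjusted p = 0.0207). In male lacrimal glands (5.43% of all probes called, 207 of them lower) 2 were lower and 0 higher. The acyl-CoA thioesterase Acot1 was at 1.38 against 7.37 (-2.42 ± 0.32, adjusted p = 2.67e-05) and the lipid droplet coat Plin2 at 1.28 against 6.35 (-2.31 ± 0.49, adjusted p = 0.00482). The medians were -0.19 and -0.26.

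A P450 needs haem and a supply of electrons, and 0 of 13 kept electron donors and haem enzymes were called higher in males. Against 2.61% and 5.43% of all probes called in the submandibular and lacrimal glands, 1 and 2 were lower. Among them, the haem synthesis enzyme Alad was lower in male submandibular glands (-1.24 ± 0.23, adjusted p = 0.00285). In male lacrimal glands the reductase Cyb5r1 (-1.22 ± 0.34, adjusted p = 0.0392) and the haem synthesis enzyme Urod (-1.004 ± 0.27, adjusted p = 0.0297) were lower. The male and female pools of Cyb5r1 overlapped. The medians were 0.02 in the submandibular and -0.37 in the lacrimal gland. Of 17 kept genes of eicosanoid metabolism, the pathway that uses arachidonic acid, 0 passed limma's adjusted p in any of the 5 glands, with medians of -0.06 in the submandibular and -0.17 in the lacrimal gland.

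Of 20 kept androgen-response genes and steroid enzymes, 3 were higher in male submandibular glands, 1 in sublingual and 2 in lacrimal glands, and 1 was lower in the last. Over all probes 2.61%, 0.208% and 5.43% were called in these glands. The estrogen sulfotransferase Sult1e1 was at 102 against 0.361 (8.13 ± 0.59, adjusted p = 7.5e-08), the testosterone-forming Hsd17b3 was up at least 6.87-fold (4.68 ± 0.84, adjusted p = 0.00199), and the androgen-receptor target and cochaperone Fkbp5 was at 2.93 against 1.07 (1.46 ± 0.37, adjusted p = 0.0366). Male sublingual glands exceeded female ones in Sult1e1 by at least 27.0-fold (6.01 ± 0.72, adjusted p = 0.000149). In the lacrimal gland Fkbp5 (11.4 against 2.41, 2.25 ± 0.37, adjusted p = 0.00047) and the steroid dehydrogenase Hsd17b11 (1.80 ± 0.50, adjusted p = 0.037) were higher and the glucuronidase Gusb was lower (-0.87 ± 0.23, adjusted p = 0.0271). The medians were -0.06, 0.08 and -0.21 in these glands. Like the other gene lists, this one was chosen with earlier results of these arrays known, so its calls are a description.

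Growth hormone acting through STAT5 sets the sex differences of many liver P450s. Of 14 kept genes of that pathway, read by 15 probes, 2 were called in the submandibular gland (2.61% of all probes) and 1 in the lacrimal gland (5.43%). Igfals, which encodes a carrier subunit for insulin-like growth factors, was higher in male submandibular glands (3.48 ± 0.54, adjusted p = 0.000445) and Stat5a was lower (-0.99 ± 0.24, adjusted p = 0.023). The female level of Igfals, 0.252, was below the 30th percentile of each female submandibular array (0.322 to 0.346). In male lacrimal glands the binding protein gene Igfbp3 was lower (at least 1.77-fold, -1.12 ± 0.26, adjusted p = 0.0122). Of 11 kept genes that differ between the sexes in mouse liver, 0 were called in the submandibular gland and 1 in the lacrimal gland, where Prom1 was lower in males (-1.81 ± 0.31, adjusted p = 0.000756). The lists' medians were -0.10 and -0.14 in the submandibular gland and both lay below 0 in the lacrimal gland, at -0.14 and -0.25. In the parotid and meibomian glands 0 genes of the pathway and family lists were called by limma, where 133 and 19 of all probes had an unadjusted p under 0.05.

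Markers of the cells in each gland, and of cells that could have come with it, were read beside the genes. These lists too were chosen with earlier results of these arrays known, so their calls are a description. The 5 lacrimal acinar markers summed to 900 to 1391 in lacrimal pools and to 4.20 to 315 in the others. Mucl1, however, was below the 30th percentile in both lacrimal groups. The 5 meibocyte and sebocyte markers summed to 281 to 392 in meibomian pools and to 10.5 to 55.4 elsewhere. Granular duct markers were highest in submandibular pools, at 625 to 738 in males and 369 to 488 in females. They summed to 140 to 368 in male parotid pools and 305 to 351 in male sublingual pools. The lowest female submandibular sum, 368.6, was thus barely above the highest male parotid sum, 368.1. The salivary glands were not set apart from the lacrimal gland by the salivary acinar markers. Salivary acinar markers summed to 94.8 to 389 in female lacrimal pools and 227 to 308 in female submandibular pools.

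In the submandibular gland, where 2.61% of all probes were called, 2 of 3 markers of the granular convoluted ducts were higher in males, Klk1b24 (4.96 ± 0.46) and Egf (3.83 ± 0.50). The uncalled marker went the other way, at -0.54. All 3 markers, the uncalled one included, summed to 625 to 738 in males and 369 to 488 in females. Klk1b24 and Egf were at 6.1 and 14.5 in females, so most of the female sum came from the uncalled marker. Klk1b24 and Egf were also higher in male sublingual glands. Skeletal muscle markers were higher in males for 5 of 7, with sums of 17.4 to 21.6 against 2.56 to 3.99, and Tnnt3 and Pvalb were below the 30th percentile in females. The hepatocyte marker Ttr was higher in males (3.65 ± 0.63, 2 male and 3 female pools), while Fgb and Apoa1 were below the 30th percentile in both sexes. Of 3 salivary acinar markers 1 was higher, Smr2, and of 5 lacrimal acinar markers 2 were lower, Mucl1 and Sval2. Of the meibocyte and sebocyte markers 1 of 5 was lower, Scd1. The part of these cells in the Cyp2b10 difference was not tested.

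In the lacrimal gland, where 5.43% of all probes were called, 0 of 5 lacrimal acinar markers were, with sums of 900 to 1391 in males and 1071 to 1321 in females. Adipocyte markers were lower in males for 2 of 4, Adipoq (-1.73 ± 0.46) and Retn (-1.49 ± 0.40), with sums of 4.56 to 15.6 against 12.4 to 28.2. The 3 granular duct markers summed to 2.97 to 16.3 in males and 8.90 to 93.5 in females, and the 3 salivary acinar markers to 22.9 to 258 and 94.8 to 389, none of them called. Ttr was called higher in males by limma (1.94 ± 0.56, adjusted p = 0.0487), but its male and female pools overlapped. Fgb was below the 30th percentile in both sexes, and of 5 meibocyte and sebocyte markers Plin2 was lower and Scd1 higher. Skeletal muscle, keratinocyte, B and T cell and macrophage markers gave 0 calls by limma in this gland. The part of these cells in the Cyp2b10 and Cyp4a12a differences was not tested.

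The arrays also fell into a pair of sets by the first component of their deviations from the group means, 10 arrays in set 1 and 16 in set 2, of a nature the labels do not give. Both sexes of a pool letter shared a set in every gland. Within set 1 and set 2 the male minus female difference of Cyp4a12a in the lacrimal gland was 5.71 and 6.41. That of Cyp2b10 in the lacrimal gland was 0.87 in set 1, which holds pair B alone, and 2.16 in set 2 (adjusted p = 0.00217). With the set as a block it kept its call (adjusted p = 0.00697).

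Which genes followed the members most closely? Over the 26 arrays and 6682 probes with a symbol and no missing value, those most like Cyp2b10 were St6galnac2 (r = 0.875) and St6galnac1 (r = 0.849), sialyltransferases that act on O-linked sugar chains. Next came the ubiquitin ligase gene Rnf103 (r = 0.835), the Golgi mannosidase gene Man2a1 (r = 0.825) and the protein disulfide isomerase gene Pdia6 (r = 0.820). Since these genes were picked for following Cyp2b10, their own sex differences are given with no test. St6galnac2 was at 17.9 in male and 1.51 in female submandibular glands (3.57) and differed by 2.19 in the lacrimal gland. The submandibular and lacrimal differences were 1.82 and 0.28 for St6galnac1, 0.71 and 0.59 for Rnf103, 1.10 and 1.66 for Man2a1, and 1.25 and 0.55 for Pdia6. The female submandibular pools of St6galnac1 lay below the 30th percentile. Over the 10 group means the 5 most alike were 0610038B21Rik (r = 0.911), St6galnac2 (0.883), St6galnac1 (0.881), Axin1 (0.879) and Rnf103 (0.858).

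The gene most like Cyp4a12a over the 26 arrays was Aldh3a2 (r = 0.882), which encodes a fatty aldehyde dehydrogenase. It was at 22.7 in male and 5.89 in female lacrimal glands (1.95), a value given with no test because the gene was picked for following Cyp4a12a. Bpifb2 (r = 0.836), of the BPI-fold family of secreted proteins, was at 7.01 against 0.503 there (3.80). The chaperonin gene Hspe1 (r = 0.822), Hap1 (r = 0.821) and the sterol hydroxylase gene Cyp27a1 (r = 0.818) followed, with lacrimal differences of 0.84, 0.64 and 0.74. Over the 10 group means the 5 most alike were Tubb4a (r = 0.939), Rpf2 (0.919), Crtap (0.902), Hspe1 (0.901) and Aldh3a2 (0.899), with lacrimal differences of 1.20, 1.19, 1.86, 0.84 and 1.95 in that order. The female lacrimal level of Tubb4a, 0.3659, was just below 0.3661, the lowest 30th percentile of those arrays, so its difference rests on dim values. These correlations, and the differences beside them, rest on the same glands and pools and are a description.

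**Figure D4:**
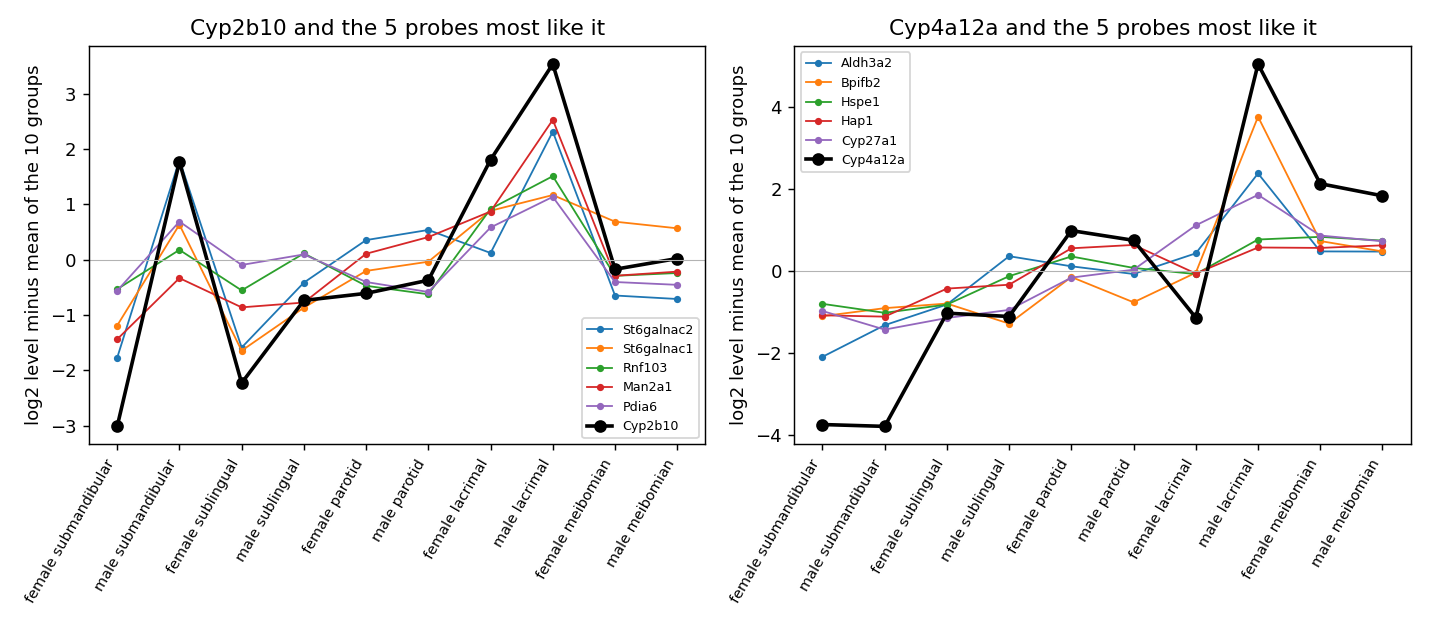
Mean log2 level of each member (black) and of the 5 probes most like it over the 26 arrays, in the 10 groups of sex and gland, each minus its own mean over the groups; lines join the groups for reading only. Cyp2b10 and St6galnac2 both lie higher in male than in female groups in the submandibular and lacrimal glands, and Cyp4a12a, Bpifb2 and Aldh3a2 peak in the male lacrimal gland.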

How the data were processed

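The members and gene lists were chosen with earlier results of these data known. For each of 10500 probes the authors deposited 1 intensity per array, on a linear scale; how they processed it is not given in the sources used here. Array medians lay between 0.928 and 0.955, so the deposited intensity was taken as scaled within each array and not normalized further. Cells at -1 (2241, or 0.821%) were read as missing and left out. Values under 0.0234, the 1st percentile of the positive values, were raised to it, and log2 was taken. Probes at or above the 30th percentile of all values (0.281 to 0.561, by array) on all arrays of 1 group or more were kept, 8191 in total. A group below it on every array has only a bound, set against the higher of that percentile and the probe's own value; a log2 difference beside a bound is the measured one.

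The fit used limma 3.58.1 under R 4.3.3 on the 26 arrays, with 10 group means, 16 residual and 4.15 prior degrees of freedom, and Benjamini-Hochberg adjustment within each comparison at 0.05. The script was tested on simulated data. Per the labels, pools are separate sets of animals. Same-letter male and female pools of a gland deviated together (r = 0.441 to 0.816 in 13 pairs over 7555 probes, all over 0.1), so the letter was tried as a block. Other alternatives changed the floor, missing code, normalization, filter, weights, variance trend, arrays fitted, array set and single arrays.

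Symbols come from GEO's platform annotation (8983 probes with 1, 1 with several, 1516 with none; 8975 matched RefSeq of GRCm38.p6 by Entrez identifier). The files name no genome build. Promoters are RefSeq's. Named genes are the members, Cyp2b and Cyp4a relatives, other Cyp2 and Cyp4 genes called, up to 3 called genes per list and gland by size, and the 5 probes most correlated with each member.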

Additional observations from a re-analysis of the deposited data

How the results depend on the processing

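The 21 results were recomputed under 14 alternatives and without each of the 26 arrays, and 0 called values changed sign. Uncalled differences did: that of Cyp4a12a turned positive in the submandibular, sublingual and parotid glands under several settings. It reached 0.76 in the submandibular gland without male pool C and 0.77 in the parotid gland without male pool B. In the sublingual gland it reached 0.14 without male pool B and 0.28 with set 1 alone. With the pool letter as a replicate block, probes called between the sexes numbered 597 (submandibular), 36 (sublingual), 1 (parotid) and 1108 (lacrimal), against 214, 17, 2 and 445. The block changed no call of Cyp2b10 or Cyp4a12a, and with it the lacrimal difference of Cyp2b10 was 1.73 (adjusted p = 0.00483). Array weights gave 355 submandibular, 195 lacrimal and 5 meibomian calls, against 3 in the last. Quantile normalization put the lacrimal difference of Cyp4a12a at 5.59.

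With a gland's own arrays alone, limma called 0 sublingual, 0 parotid and 96 lacrimal probes (159 and 79 at an unadjusted p under 0.05 in the first pair), and Cyp2b10 in the lacrimal gland was not called (1.73, adjusted p = 0.291). Adding the replicate block to those arrays, an alternative chosen after seeing the data, gave 414 submandibular, 97 sublingual, 0 parotid (273 unadjusted) and 121 lacrimal calls, and Cyp2b10 was again not called (1.73, adjusted p = 0.114). These fits hold fewer arrays. For Cyp2b10 in the lacrimal gland the standard error was 0.52 on those arrays alone and 0.34 with the block added. It was 0.40 in the main fit, which shares the spread of a probe over all groups.

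Set 1 alone, which allows no test, put Cyp2b10 at 2.49 in the sublingual and 0.87 in the lacrimal gland, its span of sex differences at 2.36 and its span over male glands at 2.68. There Cyp4a12a was at 0.28 in the sublingual gland, with spans of 4.87 over female and 4.67 over male glands. Set 2 alone gave 117 submandibular, 3 sublingual and 23 parotid calls, and put Cyp2b10 in the sublingual gland at 0.49. It holds 1 sublingual and 1 parotid pool per sex, so those counts assume that a lone pool varies like the pools of the other glands. The cause of these shifts was not tested.

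Leaving out 1 array gave 141 to 278 submandibular, 13 to 29 sublingual and 2 to 13 parotid calls, and Cyp2b10 in the lacrimal gland ran from 1.34 to 2.29. The submandibular count fell to 142 without female pool A and to 141 without male pool A or male pool B. The sublingual count was 29 without male pool A. The parotid count was 13 without female pool A, 6 without female pool B and 8 without male pool A. Cyp2b10 in the sublingual gland ran from 0.71 (without male pool A) to 2.27 (without male pool B). The parotid difference of Cyp4a12a ran from -1.25 (without male pool A) to 0.77, and its span of sex differences outside the lacrimal gland from 0.19 to 1.20. Where leaving out a pool left 1, it was assumed to vary like the other groups.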
